A study of Mus musculus with 44 samples.

Results

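The set described here holds 40 genes of DNA replication and mitosis, chosen by name from the genes listed in every expression table, out of 32287 gene identifiers in all. It was divided by role into 16 G1/S genes, which prepare and carry out DNA replication, and 24 G2/M genes, which build the spindle and drive division. All 40 were found in the tables, and all 40 passed the filter on low values in every comparison. Expression was measured by RNA-seq in 44 libraries of 12 groups from mouse embryos in which mCherry+ morulae of the strain label CD1/G4 had been aggregated with GFP+ G4 mouse embryonic stem cells (mESCs), so that embryonic cells carried GFP and extraembryonic cells carried mCherry.

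At E6.5, each library came from 1 dissected embryo. Epi was the GFP+ epiblast, exEndo 1 the distal and exEndo 2 the proximal extraembryonic endoderm, both mCherry+ (n = 4 each). At E9.5, tissue from 4 embryos was pooled for each library and cells were sorted. YsEndo was the mCherry+ yolk sac endoderm, and exMidgut and exHindgut were EPCAM+ mCherry+ gut cells of extraembryonic origin (exGut). The groups emMidgut and emHindgut were EPCAM+ GFP+ gut cells of embryonic origin with low mCherry signal (emGut). Each group of E9.5 had n = 4. The paper proposes that this signal was taken up from dying extraembryonic cells, and does not fully exclude cell fusion. At E13.5, EPCAM+ cells were sorted from the small intestine (SI) and colon of 1 embryo per library (n = 3 each). There, emSI and emColon were GFP+ and wild type, while exSI and exColon were mCherry+ and carried a Trp53 knockout made by zygotic Cas9 editing. All groups of E6.5 and E9.5 were wild type. Origin therefore cannot be told apart from the source of the cells (mESC line or host morula) at any stage, nor from Trp53 genotype at E13.5. The libraries are separate dissections or sorts as far as the labels tell, but those of the same stage can share embryos. Per the study's methods, each library of E9.5 and E13.5 was made from a small number of sorted cells, and each of E6.5 from a dissected tissue. P-values measure the spread between libraries alone, in which the sampling of few cells cannot be told apart from differences between embryos. Because the libraries were bulk, fewer cycling cells and less of each mRNA per cycling cell cannot be told apart either.

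The G1/S genes are switched on late in G1 by E2F transcription factors once cyclin-dependent kinases (CDKs) have inactivated the retinoblastoma protein. Cyclin E (Ccne1, Ccne2) starts S phase, Cdc6, Cdc45 and the Mcm2 to Mcm7 helicase open replication origins, Pcna clamps the polymerase, Rrm1, Rrm2 and Tyms make deoxynucleotides, and Gmnn stops origins from firing again. The G2/M genes peak later, through the B-MYB and FOXM1 factors acting with the MuvB core, which in resting cells sits in the repressor complex DREAM. Their promoters commonly carry a cell cycle genes homology region (CHR) and CCAAT boxes. Rapidly dividing embryos express both programmes at high level, and CDK inhibitors such as p21 (Cdkn1a) oppose them. Cdkn2a is listed here with the CDK inhibitor genes, and gene-level TPM does not tell its different products apart.

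RefSeq promoter windows from 250 bases before to 50 bases after the start (GRCm38.p6) were matched for 31 of the 40 genes, giving 32 windows because Mcm7 has 2. Kif20a, Cdc25c, Aurkb, Mcm4, Ccne2, Tpx2, Ccna2, Gmnn and Foxm1 were not matched. Motifs were searched on both strands. A CHR was the letters TTTGAA or else the variant TTCGAA, and a CCAAT box was the letters CCAAT. An E2F site was spelled TTGGCGC in the form found in Mki67, with TTGCCGC and also the forms TTCGCGC and lastly TTCCCGC accepted as well. A window could hold several motifs. A CHR was found in 14 of 18 G2/M windows (77.8%), in 3 of 14 G1/S windows (21.4%) and in 19.2% of all 32851 promoter windows. An E2F motif was found in 8 of 14 G1/S windows (57.1%), in 3 of 18 G2/M windows (16.7%) and in 9.57% of all windows. CCAAT was found in 71.4% of G1/S, 88.9% of G2/M and 37.4% of all windows. No binding was measured, so a match is a description of the letters only.

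The promoters of 4 genes are shown. Mki67, Top2a, Ccnb1, Pcna and Mcm2, named whatever their change, were ranked by the number of comparisons that called them, with ties in this order. The top 4 were taken. Mcm2 and Pcna are G1/S genes called lower in the extraembryonic endoderm of E6.5, and Top2a and Mki67 are G2/M genes that were not called there. The window of Ccnb1, the gene left out, holds CCAAT boxes and an E2F motif but no CHR. Each is the stretch of 250 bases before the start, 5′ to 3′ on the minus strand of GRCm38.p6, with CHR, CCAAT and E2F motifs in capitals, read on either strand.
Mcm2, chr6:88898781-88899030: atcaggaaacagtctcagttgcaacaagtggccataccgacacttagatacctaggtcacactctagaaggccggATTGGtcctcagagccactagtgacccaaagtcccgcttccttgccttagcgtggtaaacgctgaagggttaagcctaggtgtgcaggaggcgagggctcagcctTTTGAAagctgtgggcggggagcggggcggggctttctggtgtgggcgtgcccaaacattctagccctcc
Pcna, chr2:132253181-132253430: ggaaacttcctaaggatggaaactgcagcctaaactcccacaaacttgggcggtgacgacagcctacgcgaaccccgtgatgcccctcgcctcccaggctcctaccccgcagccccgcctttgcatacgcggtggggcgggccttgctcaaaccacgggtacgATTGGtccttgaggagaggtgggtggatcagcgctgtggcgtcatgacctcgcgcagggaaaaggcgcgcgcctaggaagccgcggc
Top2a, chr11:99024190-99024439: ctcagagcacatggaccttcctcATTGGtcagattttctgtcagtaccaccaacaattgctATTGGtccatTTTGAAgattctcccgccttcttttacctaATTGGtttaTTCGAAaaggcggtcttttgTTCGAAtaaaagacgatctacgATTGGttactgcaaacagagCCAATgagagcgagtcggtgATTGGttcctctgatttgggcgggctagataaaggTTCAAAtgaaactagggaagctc
Mki67, chr7:135716380-135716629: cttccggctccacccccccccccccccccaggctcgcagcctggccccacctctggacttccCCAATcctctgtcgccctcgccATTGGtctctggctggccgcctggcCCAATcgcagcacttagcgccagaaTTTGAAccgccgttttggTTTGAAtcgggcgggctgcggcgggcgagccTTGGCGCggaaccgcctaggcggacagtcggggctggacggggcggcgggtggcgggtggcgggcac
The Mcm2 stretch holds a CCAAT box 175 bases and a CHR 70 bases before the start, and that of Pcna holds a CCAAT box alone, 87 bases before it. The Top2a stretch holds 6 CCAAT boxes and 4 CHR motifs, the nearest CHR 23 bases before the start. In Mki67, 3 CCAAT boxes are followed by CHR motifs 116 and 98 bases and an E2F motif 67 bases before the start.

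The libraries held 3.53 to 12.04 gigabases of aligned sequence (median 6.80) and 10382 to 13596 genes above 1 TPM (the share of a library's transcripts, corrected for gene length and scaled to a fixed total of 1000000). The reporters matched the labels: mCherry was at 1731 to 8667 TPM in every mCherry+ library and at no more than 6.61 TPM in the GFP+ ones. Trp53 mRNA itself stayed present in the knockout groups (33.4 to 167 TPM in exSI, 42.5 to 124 TPM in exColon, 151 to 245 TPM in the 2 embryonic groups), and its level does not show whether the edited alleles were functional. Epiblast markers summed to 3074 to 5188 TPM in Epi, with Epi 4 lowest, yolk sac and visceral endoderm markers to 60599 to 69881 TPM in YsEndo, and all 7 gut endoderm markers were above 1 TPM in every gut library. Blood markers reached no more than 12.1 TPM anywhere, and neural markers were highest in Epi (73.2 to 80.8 TPM). Libraries that stood apart were Epi 4 (EGFP 180 TPM against 332 to 532 TPM in the other Epi), emMidgut 1 and 3 (germ cell markers 301 and 294 TPM against 71.5 and 86.4 TPM), emSI 1 and 2 (mesenchyme markers 519 and 156 TPM against 109 TPM) and exColon 1 (surface ectoderm markers 176 TPM against 13.2 and 29.7 TPM). Where leaving out such a library changed which of the 40 genes were called, the calls without it are given with the result.

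Cell cycle genes were abundant in every group. Of the 40 genes, 39 were above 1 TPM in all 44 libraries. The exception was Foxm1, at 0.847 TPM in exMidgut 3. The survivin gene Birc5, which anchors the chromosomal passenger complex, had the highest mean of group means (410 TPM), followed by Ube2c (335 TPM) and Cdc20 (304 TPM), both part of the anaphase-promoting machinery. The transcription factor gene E2f1 (7.09 TPM) and Foxm1 (12.1 TPM) were lowest. Between the highest and lowest group, Ccne1 varied most of the 40 genes (10.3-fold), followed by Foxm1 (6.30-fold), Bub1 (5.80-fold) and E2f1 (5.39-fold). Pcna varied 4.21-fold, Mki67 2.80-fold and Aurka least, 1.84-fold. Epi had the highest group mean for 17 of the genes and emHindgut for 9, whereas exMidgut had the lowest for 13 and YsEndo for 10.

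**Figure D1:**
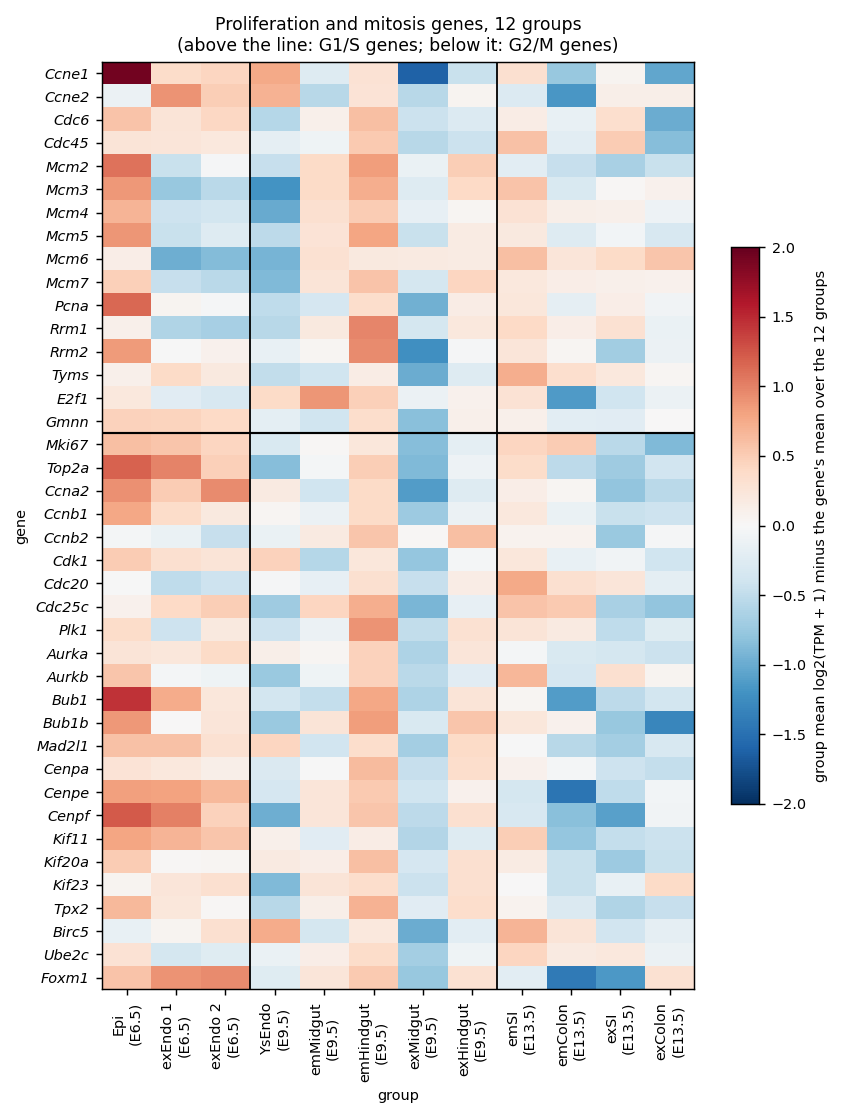
Heat map of the 40 genes (rows, G1/S above G2/M) in the 12 groups (columns), showing each group's mean log2(TPM + 1) minus the gene's mean over the groups, on a scale from -2 to 2. Epi and emHindgut are high in most rows, exMidgut is low in most, and the extraembryonic endoderm of E6.5 is below the mean in the rows of the Mcm helicase genes but above it in most G2/M rows.

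Averaged over its genes, the G1/S level was highest in Epi, at 6.93 ± 0.07 log2(TPM + 1) (SD, n = 4), and next in emHindgut at 6.87 ± 0.07 (n = 4), a difference within their spread. It was lowest in exMidgut at 5.78 ± 0.30 and YsEndo at 5.97 ± 0.05 (n = 4 each), which also overlapped. The G2/M level was 6.90 ± 0.06 in Epi and 6.84 ± 0.17 in emHindgut, and lowest in exMidgut (5.76 ± 0.64) and exSI (5.88 ± 0.07, n = 3). The place of YsEndo depended on the scale: after median-ratio rescaling its G1/S level was 6.35, above emMidgut (6.19) and exHindgut (6.19), while exMidgut stayed lowest at 5.59.

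The G2/M mean was also set against the G1/S mean of the same library. Their difference was 0.44 ± 0.11 in exEndo 1 and 0.37 ± 0.20 in exEndo 2 (SD, n = 4 each), against -0.03 ± 0.08 in Epi. The ranges of exEndo 1 (0.28 to 0.51) and Epi (-0.15 to 0.03) did not overlap. YsEndo, at 0.02 to 0.22 (mean 0.16), overlapped exEndo 2 (0.14 to 0.60). In the gut of E9.5 the group means of this difference ran from -0.07 to 0.09, but exMidgut 1 (0.46) and exHindgut 3 (0.45) lay within the range of exEndo 1. At E13.5 it was -0.47 in exSI but varied from -0.88 to 0.12 between its 3 libraries, and from -0.98 to 0.42 in exColon.

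**Figure D2:**
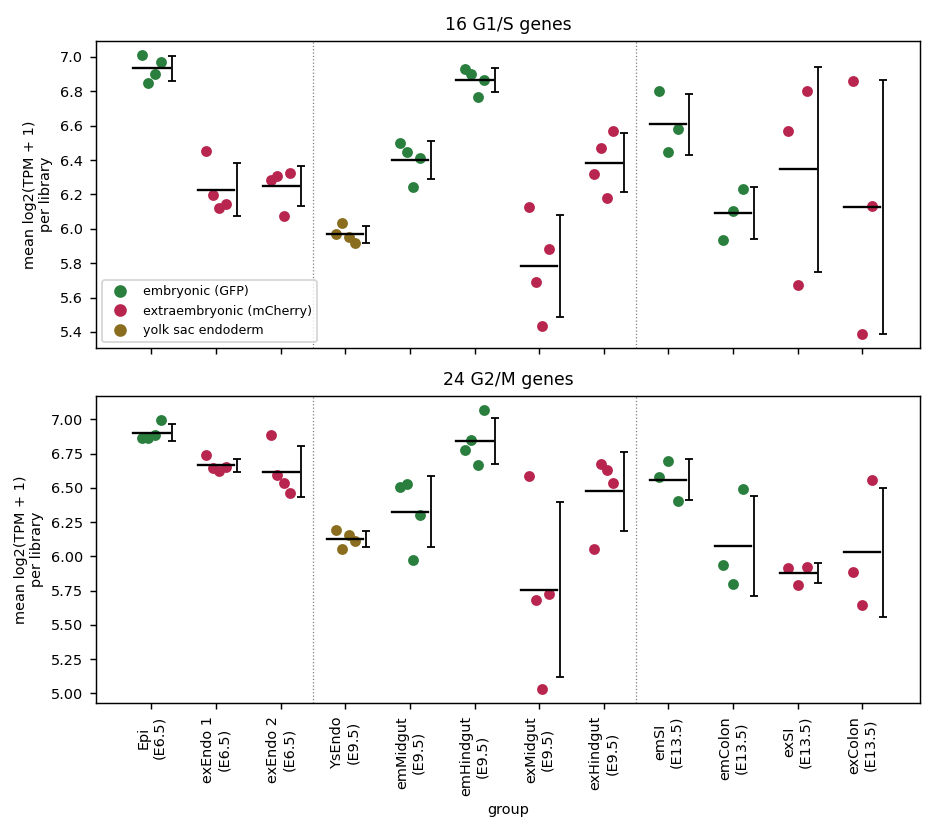
Mean log2(TPM + 1) of the 16 G1/S genes (one panel) and the 24 G2/M genes (the other) in each of the 44 libraries, with group mean (line) and SD (bar), coloured green for embryonic, red for extraembryonic and brown for yolk sac cells. The 4 Epi libraries lie above all exEndo libraries for the G1/S genes, and the 4 exMidgut libraries spread from 5.03 to 6.59 for the G2/M genes.

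Across the 12 group means the programmes moved together (Pearson r = 0.80 between the G1/S and G2/M means, with libraries and scaling shared). A gene's correlation with the mean of the other genes of its list had a median of 0.75 for the G2/M and 0.65 for the G1/S genes. It passed 0.8 for 11 G2/M genes, led by cyclin B1 (Ccnb1, 0.93), and for 2 G1/S genes, Mcm5 (0.93) and Pcna (0.86). Ccne2 (-0.04) and Mcm6 (0.19) followed the G1/S mean least, and Cdc20 (0.09) the G2/M mean least. These correlations are descriptions over 12 groups.

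At E6.5, exEndo 1, the progenitor of the exGut cells, was compared with Epi, the progenitor of the embryonic gut. Genes were called changed at a Benjamini-Hochberg adjusted p below 0.05 in limma with an absolute log2 fold change above 1. In exEndo 1, 7 of the 16 G1/S genes were lower, 1 was higher, and none of the 24 G2/M genes was called in either direction. After quantile normalization Mcm7 and the G2/M gene Bub1b were lower as well, after median-ratio rescaling Mcm7 was, and under both Ccne2 was no longer called. The difference between the lists was not tested. Over all genes tested, 13.6% were called lower, 19.8% higher and 33.4% in all. The median log2 fold change was -0.90 for the G1/S genes, -0.18 for the G2/M genes and 0.09 for all genes.

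Mcm3, a helicase subunit, was at 183, 186, 190 and 188 TPM in Epi and at 60.4, 61.4, 60.4 and 58.4 TPM in exEndo 1. The difference was -1.62 ± 0.10 on the log2(TPM + 1) scale (SE) with an adjusted p of 1.11e-07 in limma. The groups were far apart, with almost no spread within either.
Its partner Mcm2 was at 229, 247, 255 and 163 TPM in Epi and at 66.3, 78.4, 81.2 and 77.6 TPM in exEndo 1 (-1.53 ± 0.15, limma adjusted p = 5.39e-06). Ccne1, cyclin E1, was at 284, 213, 235 and 144 TPM in Epi and at 69.2, 77.0, 65.6 and 76.1 TPM in exEndo 1 (-1.55 ± 0.18, limma adjusted p = 2.13e-05). In both genes Epi 4 was the lowest Epi library and still above every exEndo 1 library. Mcm5 was at 233, 234, 247 and 134 TPM in Epi and at 85.1, 79.7, 74.7 and 88.0 TPM in exEndo 1 (-1.33 ± 0.18, limma adjusted p = 7.18e-05). Mcm6 was at 170, 153, 170 and 147 TPM against 93.0, 72.7, 70.4 and 61.8 TPM (-1.11 ± 0.14, limma adjusted p = 3.24e-05). Neither gene's groups overlapped. Mcm4 (-1.10) was lower too, and Mcm7 missed the fold threshold at -0.94 with a limma adjusted p of 8.19e-05. Summed, the 6 helicase subunits were at 933 to 1186 TPM in Epi and at 424 to 509 TPM in exEndo 1.

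Pcna was at 580, 404, 422 and 720 TPM in Epi and at 344, 234, 222 and 194 TPM in exEndo 1 (-1.09 ± 0.21, limma adjusted p = 0.001). The groups did not overlap, but the call was lost without Epi 4 or without exEndo 1 4. Cyclin E2 went the other way from cyclin E1. Ccne2 was at 29.1, 21.6, 26.7 and 51.3 TPM in Epi and at 74.8, 51.9, 64.5 and 62.4 TPM in exEndo 1 (1.02 ± 0.23, limma adjusted p = 0.00255). Every exEndo 1 library was above every Epi library, but this call was lost under median-ratio rescaling (0.89), under quantile normalization (0.76), and without any of Epi 1, Epi 2, Epi 3 or exEndo 1 1.

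Among the G2/M genes, Mki67, the gene of the Ki-67 proliferation antigen, was at 33.4, 38.2, 38.5 and 58.2 TPM in Epi and at 39.9, 40.1, 39.7 and 39.9 TPM in exEndo 1. The difference was -0.04 ± 0.16 (limma adjusted p = 0.835), and 0.12 without Epi 4, the highest library. Topoisomerase Top2a was at 306, 271, 267 and 383 TPM and at 317, 242, 239 and 273 TPM, a difference of -0.19 ± 0.14 (limma adjusted p = 0.27). For both the groups overlapped. Ccnb1, the cyclin of mitotic entry, overlapped as well (-0.41 ± 0.21, limma adjusted p = 0.111). The spindle checkpoint kinase gene Bub1b, at 53.4 to 76.7 TPM in Epi and 36.3 to 39.7 TPM in exEndo 1, had the most negative value of the 24 at -0.87 ± 0.14, short of the fold threshold. In all, 8 of 24 G2/M genes and 12 of 16 G1/S genes had a limma adjusted p below 0.05. Shares of all genes were computed for calls alone. Counts by p that are not calls, here and below, therefore stand without such a share. Without Epi 4, 7 genes of the 40 were lower, Pcna being replaced by Plk1, the polo-like kinase of mitosis.

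The comparison of exEndo 2 with Epi shares the Epi libraries, so its values are given beside the former and are not independent of them. Of the 16 G1/S genes 7 were lower, and of the 24 G2/M genes 1 was lower, with none higher. Over all genes 15.4% were lower, 20.4% higher and 35.8% called. Median log2 fold changes were -0.88 for G1/S and -0.26 for G2/M genes. Ccne1 was at 66.4, 70.7, 73.2 and 92.2 TPM in exEndo 2 (-1.49), Mcm3 at 70.4, 73.6, 63.1 and 72.6 TPM (-1.41), and Pcna at 283, 235, 186 and 223 TPM (-1.17). Mcm5 (-1.14), Mcm2 (-1.12), Mcm4 (-1.05) and Mcm7 (-1.03) were the other G1/S genes that fell, and Mcm6 lay just short of the threshold at a limma adjusted p of 7.22e-06. Bub1, a checkpoint kinase gene, was at 138, 133, 117 and 201 TPM in Epi and at 69.2, 61.8, 53.1 and 62.5 TPM in exEndo 2 (-1.22 ± 0.17, limma adjusted p = 4.45e-05). No exEndo 2 library reached the lowest Epi library. Top2a was at 224, 221, 145 and 166 TPM in exEndo 2, -0.71 ± 0.17 against Epi (limma adjusted p = 0.00286), below the fold threshold. Mki67 did not pass (-0.18 ± 0.19, limma adjusted p = 0.439), nor did Ccnb1 on fold (-0.59 ± 0.23, limma adjusted p = 0.0402). Without Epi 4, 9 genes were lower, Mcm6 being added. Mcm7 was not called without Epi 3, and Mcm4 and Mcm7 were not called without exEndo 2 3.

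Between exEndo 1 and exEndo 2, none of the 40 genes was called, against 6.41% of all genes (3.96% higher and 2.45% lower). By limma, 5 genes had an adjusted p below 0.05 and 9 an unadjusted p below 0.05. Plk1 was lower in exEndo 1 (-0.62 ± 0.13, limma adjusted p = 0.00833), as was Mcm2 (-0.41 ± 0.11, 0.0314). Bub1 (0.50 ± 0.12, limma adjusted p = 0.0191), the kinetochore gene Cenpf (0.55 ± 0.16, 0.0431) and Top2a (0.52 ± 0.16, 0.0492) were higher in it.

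**Figure D3:**
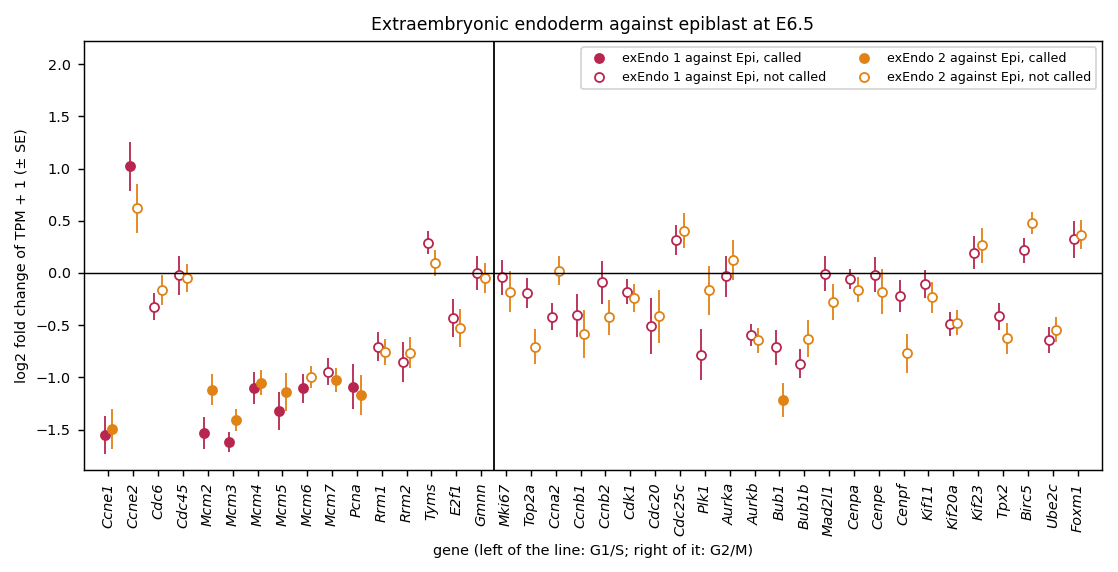
Log2 fold change (difference of mean log2(TPM + 1), with SE) of the 40 genes in exEndo 1 against Epi (red) and exEndo 2 against Epi (orange), n = 4 per group, with filled points for called genes. The Mcm genes, Ccne1 and Pcna lie below -0.9 in both comparisons, Ccne2 lies above 0, and most G2/M genes lie between -0.9 and 0.5.

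Further cell cycle genes were listed apart from the 40. Of 25 other replication genes, 4 were lower in exEndo 1 than in Epi and none higher (Chaf1b -1.37, Pold1 -1.36, Ung -1.18 and Pola1 -1.15), with a median of -0.45. Of 37 other mitotic genes, 1 was lower (the condensin gene Ncapd2, -1.39) and 1 higher (the kinetochore gene Spc25, 1.05), with a median of -0.14. These counts stand beside 13.6% of all genes called lower and 19.8% higher. Of 22 regulators of G1, 2 were lower and none higher, both of them D cyclins, which act upstream of E2F. Ccnd1 was at 170, 129, 163 and 99.6 TPM in Epi and at 2.88, 13.6, 2.40 and 13.2 TPM in exEndo 1 (-4.26 ± 0.46, limma adjusted p = 1.1e-05). The exEndo 1 libraries with more Ccnd1, replicates 2 and 4, also had more EGFP (13.7 and 15.9 TPM against 1.09 and 0.0664 TPM), and the part of GFP+ cells in these values was not tested. Ccnd2 was lower as well (-2.56). Of the 7 CDK inhibitor genes, 5 passed the filter, and Cdkn2a (4.06) and Cdkn1c (2.89), which encodes p57, rose in exEndo 1. Cdkn2a was at 0.267 to 3.36 TPM in Epi and at 22.1 to 48.7 TPM in exEndo 1.

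At E9.5, exGut was compared with emGut over midgut and hindgut (n = 8 each) to ask whether gut cells of extraembryonic origin differ from their embryonic neighbours. All 40 genes had a negative log2 fold change, and none was called, against 1.26% of all genes called lower and 2.33% called. By limma, 1 gene had an adjusted p below 0.05 and 22 an unadjusted p below 0.05. The median was -0.49 for the G1/S genes, -0.46 for the G2/M genes and -0.03 for all genes. The signs of the 40 genes are not 40 independent observations, because the genes move together across libraries. The share of all genes with negative values was not computed.

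The gene that passed on p alone was Mcm5, at 68.9, 107 and 138 TPM (lowest, median and highest) in exGut and 116, 168 and 220 TPM in emGut (-0.67 ± 0.17, limma adjusted p = 0.0273). Rrm2, the inducible subunit of ribonucleotide reductase, had the largest difference, with 28.2, 111 and 168 TPM in exGut and 126, 224 and 311 TPM in emGut (-1.12 ± 0.31, limma adjusted p = 0.055). The phosphatase gene Cdc25c, whose product activates CDK1, followed with 9.22, 26.1 and 59.4 TPM against 33.6, 52.6 and 76.9 TPM (-1.11 ± 0.31, limma adjusted p = 0.058). In each of these genes the ranges overlapped. Mki67 was at 8.64, 18.8 and 31.7 TPM in exGut and 22.3, 29.2 and 34.9 TPM in emGut (-0.65 ± 0.23, limma adjusted p = 0.146). Top2a (-0.72 ± 0.26, limma adjusted p = 0.156), Ccnb1 (-0.55 ± 0.21, 0.177), Mcm2 (-0.43 ± 0.16, 0.156) and Pcna (-0.41 ± 0.26, 0.454) overlapped too, and Ccnb2 (-0.05) was nearest to 0.

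The test pools regions that differ in these genes. With region as a covariate, 3 genes were lower (Rrm2, Cdc25c and Ccne1, -1.04) and 19 had a limma adjusted p below 0.05, and the same 3 were called with all 44 libraries in 1 fit. Over all genes, these fits called 584 and 588, against 313 of 13460 in the main fit. Leaving out single libraries gave 0 to 2 called genes, with 2 (Rrm2 and Cdc25c) without emMidgut 3 or without exHindgut 2, and 1 without emMidgut 4, exHindgut 3 or exHindgut 4 (Rrm2) or without exMidgut 1 (Cdc25c). Leaving out emMidgut 1 and 3, those with germ cell markers, gave 1, Rrm2.

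In the midgut alone, exMidgut was at 101, 61.0, 28.2 and 87.0 TPM for Rrm2 and emMidgut at 162, 191, 126 and 137 TPM (-1.27 ± 0.30, limma adjusted p = 0.033). This was the only gene of the 40 called lower there, against 1.34% of all genes, and the groups did not overlap. The call was lost without any single emMidgut library and without exMidgut 2 or 3. Without exMidgut 1, 6 genes were lower (Rrm2, Top2a, Mki67, Kif23, Cdc25c and Cenpe). exMidgut 1 had 28.4 TPM of Mki67 and 46.5 TPM of Cenpe, and the other 3 had 8.64 to 15.4 and 13.1 to 15.5 TPM. The 4 exMidgut libraries also differed in yolk sac and visceral endoderm markers, from 7081 TPM in exMidgut 1, with the highest G2/M mean (6.59), to 16987 TPM in exMidgut 3, with the lowest (5.03). All of them exceeded emMidgut (1463 to 3196 TPM), and the part of these markers in the difference was not tested.

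In the hindgut alone, where yolk sac and visceral endoderm markers were low (115 to 686 TPM in exHindgut and 26.7 to 86.8 TPM in emHindgut), none of the 40 genes was called, against 3.06% of all genes (1.36% higher and 1.7% lower), 8 had a limma adjusted p below 0.05 and 21 an unadjusted p below 0.05. Rrm2 was at 122, 168, 150 and 149 TPM in exHindgut and 283, 311, 257 and 296 TPM in emHindgut (-0.96 ± 0.12, limma adjusted p = 0.000164). The groups did not overlap, and the gene missed the fold threshold alone. Rrm1, the other subunit (-0.76 ± 0.15, limma adjusted p = 0.00881), Mcm5 (-0.63 ± 0.12, 0.00728) and Cdc45 (-0.96 ± 0.24, 0.0298) were also below emHindgut. Single libraries mattered here too: without emHindgut 3 or without exHindgut 2, Rrm2, Cdc45 and Cdc25c were lower, and without emHindgut 1 or exHindgut 4 1 gene was (Cdc45 and Cdc6 in turn). The origin effect was not shown to differ between regions, with 0 of the 40 interaction terms below an adjusted p of 0.05 in limma, 1 at an unadjusted p below 0.05 (Mcm7) and 0.0966% of all genes called (0.0446% positive and 0.052% negative).

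**Figure D4:**
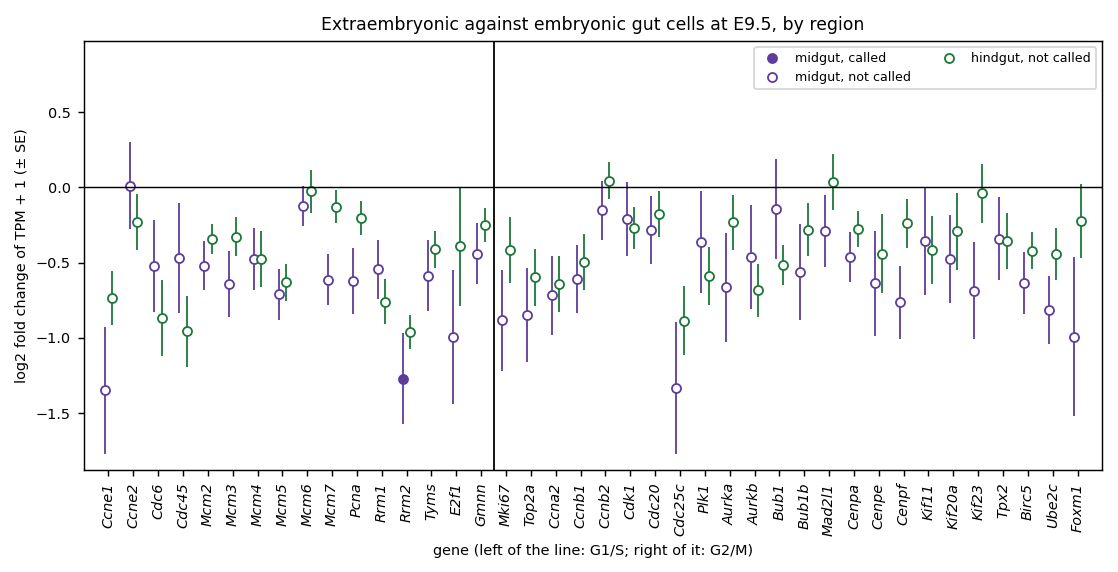
Log2 fold change (difference of mean log2(TPM + 1), with SE) of the 40 genes in extraembryonic against embryonic gut cells of the midgut (purple) and the hindgut (green) at E9.5, n = 4 per group. Of the midgut points 39 and of the hindgut points 38 lie below 0, and the sole filled point, a called gene, is Rrm2 in the midgut.

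Of the 7 CDK inhibitor genes, 6 were tested in exGut against emGut, and 2 were higher and none lower. Cdkn2a was at 405, 381, 463 and 547 TPM in exMidgut and 17.4, 8.44, 13.8 and 24.7 TPM in emMidgut. It was at 205, 183, 171 and 229 TPM in exHindgut and 0.188 to 3.22 TPM in emHindgut (5.62 ± 0.55 over both regions, limma adjusted p = 2.2e-06). Cdkn2b was higher as well (2.54). No origin groups overlapped in Cdkn2a. Cdkn1a was not among the 2 genes called over both regions. In the hindgut alone it was higher, at 490 to 701 TPM in exHindgut and 199 to 312 TPM in emHindgut (1.18 ± 0.14, limma adjusted p = 0.00014). Its midgut values are not given here. Mybl2, which encodes B-MYB, was at 2.36 to 14.4 TPM in exGut and 10.8 to 29.2 TPM in emGut and fell (-1.22 ± 0.31, limma adjusted p = 0.03). Of the 25 other replication genes all 25 and of the 37 other mitotic genes 36 had negative values, with none called.

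The regions of the gut were compared next, hindgut against midgut with both origins together (n = 8 each). Both regions can come from the same pools of embryos, and the fit did not pair them. Of the 40 genes, 2 were higher and none lower, against 5.59% of all genes called higher, 8.66% lower and 14.2% in all. By limma adjusted p below 0.05 alone there were 28, and the share of all genes passing so was not computed. The median was 0.57, and -0.01 for all genes. Rrm2 was at 122, 213 and 311 TPM in the hindgut and 28.2, 114 and 191 TPM in the midgut (1.06 ± 0.18, limma adjusted p = 9.5e-05). Bub1 was at 57.0, 73.3 and 99.2 TPM against 18.8, 37.8 and 57.2 TPM (1.06 ± 0.19, limma adjusted p = 0.000185). Both ranges overlapped, those of Bub1 barely. Mcm2, at 141 to 193 TPM in the hindgut and 72.1 to 138 TPM in the midgut, and Gmnn were the genes whose ranges did not meet. The share of all genes without overlap was not computed, so this has no background. Pcna, at 214 to 336 TPM against 90.3 to 224 TPM, missed the fold threshold (0.90 ± 0.13, limma adjusted p = 1.9e-05), as did Top2a (0.65 ± 0.20, 0.0169) and Ccnb1 (0.55 ± 0.16, 0.0105). Mki67 did not pass (0.43 ± 0.20, limma adjusted p = 0.112). Without exMidgut 3 no gene was called, without emMidgut 1 and 3 together Rrm2 and Bub1 were, without emMidgut 4 Rrm2 alone was, and without exMidgut 1 there were 4 (Rrm2, Bub1, Pcna and Plk1). Ccnd1 rose in the hindgut (1.74), and Cdkn2a, Cdkn1c (-1.54) and Cdkn1b (-1.04) fell.

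The gut groups were also set against YsEndo, whose 4 libraries both comparisons share. In exGut, 2 genes were higher (Mcm3, 1.26 and Mcm6, 1.10) and 2 lower (Ccne1, -1.78 and Birc5, -1.35), against 32.3% and 10% of all genes (42.4% in all). In emGut, 12 were higher and none lower, against 35.7% and 10.9% of all genes (46.6% in all). Without emMidgut 3 there were 15, Cdc6, Aurkb and Tpx2 being added, and without emMidgut 1 the count was 12. The 12 were Mcm3 (1.75), Mcm4 (1.42), Cenpf (1.37), Mcm7 (1.29), Cdc25c (1.29), Bub1b (1.29), Kif23 (1.19), Mcm6 (1.18), Rrm1 (1.14), Top2a (1.09), Mcm2 (1.07) and Mcm5 (1.05). Without exMidgut 3, 4 genes were higher in exGut (Mcm3, Mcm6, Mcm7 and Bub1b). The counts turned with the scale: the medians of all genes differed by 0.51 and 0.53 between TPM and median-ratio rescaling. After rescaling exGut had 0 higher and 9 lower, and emGut 1 higher (Mcm3) and 5 lower, and under quantile normalization the counts were 1 and 4 in exGut and 5 and 1 in emGut.

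Mcm3 in YsEndo was at 38.7, 46.2, 43.5 and 48.3 TPM, below every gut library of E9.5 (52.6 to 207 TPM). Birc5 was at 643, 650, 641 and 657 TPM in YsEndo, above every exGut library (138 to 388 TPM), and stayed lower in exGut under median-ratio and quantile scaling. Ccne1, at 87.2 to 109 TPM in YsEndo and 5.24 to 49.6 TPM in exGut, stayed lower as well. On the TPM scale, YsEndo combined low helicase subunit mRNA (340 to 407 TPM summed, against 492 to 1062 TPM in the gut groups) with the highest Birc5 group mean of the series. The sums in exEndo 1 (424 to 509 TPM) and exEndo 2 (467 to 522 TPM) were not far above. The sum was not computed after median-ratio rescaling, under which Mcm3 and Mcm6 were no longer called higher in exGut, while Mcm3 stayed so in emGut. Among the G1 regulators, Ccnd1 and Ccnd2 (5.95) rose in exGut against YsEndo, in which Ccnd1 was at 0.231 to 1.33 TPM, and Mybl2 fell (-3.15).

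At E13.5, the Trp53 knockout cells of extraembryonic origin were compared with the wild-type cells of embryonic origin, with organ as a covariate (n = 6 each). Each intestine was split into small intestine and colon, so libraries of the organs can come from the same embryo. The labels do not tie them, and if organs do share embryos, p-values over 6 libraries can be too small. Per the study's methods, the embryonic cells were sorted as control from embryos with the extraembryonic knockout. Embryonic and extraembryonic libraries of an organ can thus come from the same embryo as well. The fit did not pair them, which can make p-values too large. None of the 40 genes was called, against 0.626% of all genes (0.481% higher and 0.144% lower). None had a limma adjusted p below 0.05, and 9 had an unadjusted p below 0.05. Of these, 8 were G2/M genes with lower values in the extraembryonic cells, and the ninth was Ccne2, with a higher one. The median was -0.43 for the G2/M genes, -0.17 for the G1/S genes and 0.11 for all genes.

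Mki67 was at 8.28, 17.4 and 24.2 TPM (lowest, median and highest) in the extraembryonic and 21.4, 42.4 and 48.6 TPM in the embryonic cells (-1.17 ± 0.35, limma adjusted p = 0.169). Bub1b was at 5.80, 22.6 and 28.9 TPM against 29.1, 45.4 and 54.6 TPM (-1.19 ± 0.37, limma adjusted p = 0.20). Birc5 was at 199, 342 and 368 TPM against 381, 594 and 673 TPM (-0.75 ± 0.19, limma adjusted p = 0.0903). In Bub1b and Birc5 the ranges did not overlap, and in Mki67 they overlapped between 21.4 and 24.2 TPM. Top2a (-0.46 ± 0.31, limma adjusted p = 0.622) and Ccnb1 (-0.47 ± 0.24, 0.498) overlapped. Replication genes overlapped as well, with Mcm2 at 40.5, 82.9 and 93.2 TPM against 46.8, 72.4 and 141 TPM (-0.21 ± 0.30) and Pcna at 150, 230 and 333 TPM against 195, 225 and 352 TPM (0.00 ± 0.20). Fitted with all 44 libraries, which share 1 estimate of the spread, Mki67, Bub1b and Cdc25c were called lower. That fit called 1204 genes in all, against 78 of 12470 in the main fit.

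Each organ was then taken alone. In the small intestine, 24 of 24 G2/M genes had lower means in exSI than in emSI (median -0.71), and none was called, against 0.739% of all genes. The ranges of 12 did not overlap, but the shares of all genes without overlap or with lower means were not computed. These counts therefore have no background, and the genes move together. By limma, 11 of the 40 genes had an unadjusted p below 0.05. Top2a was at 79.5, 66.0 and 102 TPM in exSI and at 180, 176 and 160 TPM in emSI (-1.07 ± 0.24, limma adjusted p = 0.0942). The value of 160 TPM was that of emSI 3, the emSI library with the lowest mesenchyme markers, and no gene was called without emSI 1 or without emSI 2. Yolk sac and visceral endoderm markers were at 4804 to 7653 TPM in exSI and 1726 to 2300 TPM in emSI, and mesenchyme markers at 4.65 to 53.5 TPM and 109 to 519 TPM. Of the 8 yolk sac markers, 8 were above 1 TPM in every exSI and 7 in every emSI library. Of the 8 mesenchyme markers, 1 and 2 were, and 4 (Col1a1, Col1a2, Prrx1 and Dcn) were at 0 in every exSI library. Neither summed range overlapped between the groups, and their part in the difference was not tested. In the colon, Mki67 was at 17.0, 8.28 and 19.8 TPM in exColon and 30.1, 48.6 and 38.6 TPM in emColon (-1.38 ± 0.57, limma adjusted p = 0.462), without overlap, but Top2a overlapped (0.14 ± 0.46). In exColon against emColon 15 of 24 G2/M genes had negative values (median -0.14), 3 of the 40 genes had an unadjusted p below 0.05, and none was called, against 0.269% of all genes. There the yolk sac and visceral endoderm markers overlapped (3016 to 8278 TPM in exColon and 2569 to 4936 TPM in emColon), and the mesenchyme markers did not (16.2 to 66.6 TPM and 96.5 to 160 TPM). The origin effect was not shown to differ between organs, with 0 of 40 interaction terms below an adjusted p of 0.05 in limma, 3 at an unadjusted p below 0.05 (Top2a, Kif11 and Foxm1) and 0.016% of all genes called.

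**Figure D5:**
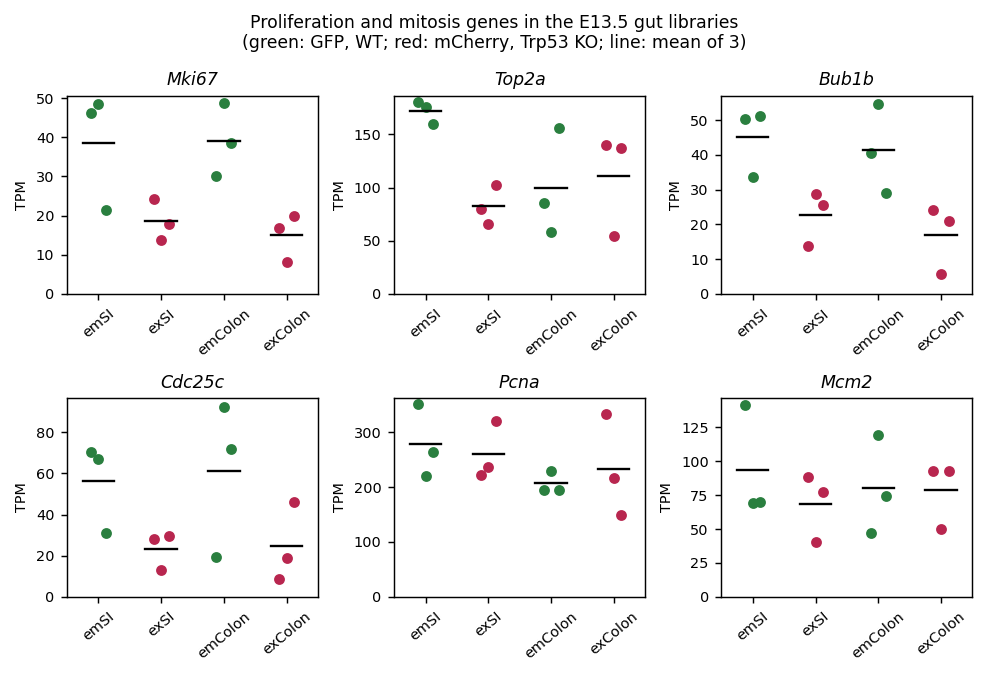
TPM of Mki67, Top2a, Bub1b, Cdc25c, Pcna and Mcm2 in the 3 libraries of emSI, exSI, emColon and exColon at E13.5 (points, green for GFP+ wild type and red for mCherry+ Trp53 knockout, line at the mean). The means of Mki67 and Bub1b are lower in the red groups of both organs, that of Top2a in the small intestine alone, and Pcna overlaps throughout.

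Library spread was large at E13.5, where each library held few sorted cells, and the part of this in the spread was not tested. exColon 2 was lowest in Ccne1 (4.34 TPM against 36.5 and 102 TPM) and Cdc45 (1.2 TPM against 44.5 and 78.2 TPM), and emColon 2 in Cenpe (1.88 TPM against 15.5 and 18.3 TPM). Leaving out emSI 1, emSI 2 and exColon 1, in which markers of other cell types were high for their group, also gave no called gene among the 40. That fit kept emColon 1 and 3, whose mesenchyme markers (146 and 160 TPM) were near those of emSI 2 (156 TPM). Colon against small intestine gave none either, against 1.3% of all genes (0.529% higher and 0.77% lower), with 2 at an unadjusted p below 0.05 in limma (Cdc20 and Aurkb). Cdkn2a stayed separated by origin, at 885, 1005 and 723 TPM in exSI and 451, 655 and 587 TPM in exColon against no more than 93.4 TPM in the embryonic cells (6.71 ± 0.69, limma adjusted p = 1.8e-05).

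From E9.5 to E13.5, 2 genes of the set fell in embryonic cells and none rose, against 18.4% of all genes called lower, 3.32% higher and 21.7% in all. Cenpe, a kinetochore motor, was at 25.1, 34.8 and 47.3 TPM at E9.5 (n = 8) and 1.88, 17.5 and 24.9 TPM at E13.5 (n = 6), with no overlap (-1.29 ± 0.34, limma adjusted p = 0.00517). The call of Cenpe was lost without emColon 2, without emSI 1 Mcm2 was called too, and without emSI 2 there were 4 called genes (Cenpe, Foxm1, Cenpf and E2f1). Foxm1 was at 8.42, 14.5 and 18.8 TPM and at 2.73, 4.95 and 12.2 TPM (-1.19 ± 0.36, limma adjusted p = 0.0109). Mcm2 missed the fold threshold (-0.95 ± 0.20, limma adjusted p = 0.000697). In extraembryonic cells, where the stage comparison goes with the Trp53 knockout and cannot be told apart from it, 1 gene was lower, against 13% of all genes called lower, 4% higher and 17% in all. Bub1b was at 16.8, 50.4 and 63.2 TPM at E9.5 and 5.80, 22.6 and 28.9 TPM at E13.5 (-1.16 ± 0.28, limma adjusted p = 0.00245). Without exColon 2 it was not called, and Ccne1 and Cdc45 were called higher instead. These stage calls also depended on scaling: with the median of all genes shifted by -0.23 and -0.14 between scales, Cenpe alone remained called in embryonic cells under median-ratio rescaling and none under quantile normalization, and Bub1b was lost under both.

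The stage change was not shown to differ with origin for any of the 40 genes (0 interaction terms below an adjusted p of 0.05 in limma, 4 at an unadjusted p below 0.05, 0.706% of all genes called). By list, the interaction was positive for 16 of 16 G1/S genes (median 0.39, all genes 0.14) and for 11 of 24 G2/M genes (median -0.05). Ccne2 (0.94 ± 0.34, limma adjusted p = 0.22) and Mcm5 (0.51 ± 0.23, limma adjusted p = 0.345) were among the G1/S genes. The share of all genes with positive values was not computed, and the genes move together, so these sign counts have no background. Trp53 genotype changes with this contrast and cannot be told apart from it.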

How the data were processed

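RNA-seq was measured in 44 libraries of 12 groups. Per the labels and the study's methods, the authors used cutadapt 4.1 for trimming, STAR 2.7.9a for alignment to mm10 (both reporter genes included) and StringTie 2.0.6 for quantification. The deposited files give for each gene TPM (per length, scaled to 1000000 per library), FPKM and read coverage. No read counts were given, so no counting interval was possible. TPM was used for every test. Gigabases per library were computed from the deposited coverage and FPKM signal values, and they ranged from 3.53 to 12.04, with no depth per gene.

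TPM was summed per gene identifier. Of 32287 identifiers, 32158 matched GENCODE vM21, and protein-coding genes outside chromosome Y and the reporters were tested if above 1 TPM in at least 4 libraries (3 where E13.5 was fitted alone). Differences of log2(TPM + 1) were fitted with limma 3.58.1 (eBayes with trend, R 4.3.3) and adjusted by Benjamini-Hochberg over all genes of a fit. Fold changes on this scale understate those of low genes. Calls required that the adjusted p be below 0.05 and that the log2 fold change exceed 1 in size (interactions: p alone). The test was checked on simulated data, where fits of E13.5 alone recovered fewer of the planted changes than most fits of earlier stages. A gene not called is not shown to be equal between groups. The 40 members and the other gene lists were chosen with earlier results of these data known. Values were given for the called members with the largest changes, up to 5 in each direction, for Mki67, Top2a, Ccnb1, Pcna and Mcm2, and for up to 3 called genes of each other list in each direction; further members were named after their values were seen. Alternatives were a pseudocount of 0.1, no filter, median-ratio rescaling, quantile normalization, no trend, all gene types, a replicate block, other covariates, all 44 libraries in 1 fit and each library left out.

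Replicate numbers paired exEndo 1 with exEndo 2, whose same-numbered deviations correlated at 0.147 to 0.379; no other pair of groups had every correlation above 0.1. Promoter windows were those of RefSeq. Python 3.11.15, NumPy 2.4.6, pandas 2.3.3, SciPy 1.17.1, statmod 1.5.0 and matplotlib 3.10.9 were used.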

Additional observations from a re-analysis of the deposited data

Results flagged for a closer look

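In 12 of 176 sets of libraries examined (22 measures in 8 groups of 4, 6.82%), 1 library lay so far from the other 3 that its gap to the nearest, divided by the group's range, passed Dixon's critical value, which chance alone gives in about 1 in 20 groups.

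Of these, 5 were Epi 4. Its Bub1b was at 53.4 TPM, with the other Epi libraries at 76.1 to 76.7 TPM. Its Mcm5 was at 134.4 TPM, against 233 to 247 TPM. Higher in Epi 4 were Cenpe (64.76 TPM against 40.7 to 43.2 TPM), Cenpf (106.6 TPM against 70.4 to 74.8 TPM) and the mean log2(TPM + 1) of the G2/M genes (6.997 against 6.87 to 6.88).

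In exEndo 1, replicate 1 had 363.1 TPM of Ccnb1 against 237 to 239 TPM, and 77.18 TPM of Mcm4 against 49.3 to 53.2 TPM. In exEndo 2, replicate 1 had 359.6 TPM of Ccnb1 against 197 to 206 TPM, and replicate 3 had a G1/S mean log2(TPM + 1) of 6.074 against 6.28 to 6.33. YsEndo 1 had 165.9 TPM of Rrm2 against 122 to 127 TPM. emHindgut 4 had 92.19 TPM of Bub1b against 61.2 to 62.4 TPM. exMidgut 1 had 46.51 TPM of Cenpe against 13.1 to 15.5 TPM.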

How the results depend on the processing

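Median-ratio rescaling gave, among the 40 genes, 0 higher in exEndo 1 against Epi, 0 higher and 9 lower in exGut against YsEndo, 1 higher and 5 lower in emGut against YsEndo, 1 lower in the embryonic and 0 in the extraembryonic stage comparison. Log2 fold changes that turned sign under it were Pcna (-0.48) and Top2a (-0.21) in exGut against YsEndo, Ccnb1 (-0.50), Mki67 (-0.16) and Pcna (-0.082) in emGut against YsEndo, Pcna by origin at E13.5 (-0.095) and in the organ interaction (-0.011), Ccnb1 by stage in embryonic (0.20) and extraembryonic cells (0.16) and in the stage interaction (-0.036), Top2a by stage in extraembryonic cells (0.12), and Mcm2 (-0.18), Pcna (-0.088) and Top2a (-0.046) in exColon against emColon. Quantile normalization gave 0 higher in exEndo 1 against Epi, 1 higher and 4 lower in exGut and 5 higher and 1 lower in emGut against YsEndo, 0 lower in both stage comparisons and 1907 called genes of all in the embryonic one (3043 before), and turned Mki67 in emGut against YsEndo (-0.082), Pcna (-0.018) and Mki67 (0.085) by stage in embryonic and extraembryonic cells and Mcm2 in exColon (-0.13).

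With all 44 libraries in 1 fit, 458 genes in all were called between exEndo 1 and exEndo 2 (731 before), 588 (313) with 3 of the 40 lower in exGut against emGut, and 1204 (78) with 3 lower at E13.5. Region as a covariate gave 584 and 3 in exGut against emGut. Leaving out emMidgut 1 and 3, chosen after seeing the data, gave 1 lower there. Leaving out emSI 1 and 2 and exColon 1, likewise chosen, gave 44 genes in all at E13.5 and Pcna -0.14. The region interaction called 0 genes with a pseudocount of 0.1 and 8 with no filter or no trend (13 before), the organ interaction 12 and 4 (2 before), and colon against SI 81 with no filter (162 before). Rrm2 in exMidgut was not called with no filter or no trend (0 genes). The cause was not tested for any of these.

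Leaving out each library in turn gave 0 to 1 higher in exEndo 1 against Epi (Mki67 -0.14 to 0.12), Pcna -0.086 to 0.19 between exEndo groups, and 0 to 2 lower in exGut against emGut. The region interaction called 3 to 19 genes in all (Ccnb1 -0.048 to 0.34, Top2a -0.082 to 0.57), and hindgut against midgut 0 to 4 higher. exGut against YsEndo had 2 to 4 higher (Pcna -0.019 to 0.24). At E13.5 Pcna ran from -0.14 to 0.12 by origin, and Ccnb1 -0.35 to 0.036, Mcm2 -0.19 to 0.16 and Mki67 -0.32 to 0.048 by organ. The organ interaction called 0 to 3 genes in all (Ccnb1 -0.029 to 0.84, Pcna -0.10 to 0.48). By stage there were 2 to 4 lower in embryonic cells (Pcna -0.072 to 0.10), and 0 to 2 higher and 0 to 1 lower in extraembryonic cells (Ccnb1 -0.21 to 0.22, Top2a -0.22 to 0.17). The stage interaction called 74 to 203 genes in all (Ccnb1 -0.12 to 0.32). There were 0 to 6 lower in exMidgut and 0 to 3 lower in exHindgut against their embryonic groups. In exColon Ccnb1 ran from -0.68 to 0.18, Mcm2 -0.32 to 0.35, Pcna -0.19 to 0.38 and Top2a -0.18 to 0.58, and in exSI Pcna from -0.25 to 0.087.

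The replicate block took the count of all genes called between exEndo 1 and exEndo 2, whose numbers pair, from 731 to 770 and left 0 of the 40 called. Elsewhere the labels give a shared number alone, although organs of E13.5 can come from the same embryo (same-numbered correlations 0.00813 to 0.0359 between exSI and exColon, and -0.0249 to 0.00439 between emSI and emColon). Embryonic and extraembryonic cells of an organ can too (0.0508 to 0.0666 between emSI and exSI, and 0.0168 to 0.0270 between emColon and exColon). Gut groups of E9.5 can likewise come from the same pools of embryos. There the block moved exGut against emGut from 313 to 274 genes in all and changed no count among the 40. TPM holds no read counts, so the depth behind low genes such as E2f1 and Foxm1 is unknown.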
